A study of Mus musculus with 6 samples.

Results

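The cytosolic ribosomal protein genes were the 80 rows, of 24264 genes in the expression table, whose symbols name a protein of the large subunit (Rpl), the small subunit (Rps) or the stalk (Rplp0, Rplp1 and Rplp2), with pseudogene symbols left out. They were measured by RNA-seq of polyadenylated RNA from lumbar dorsal root ganglia (DRG), the clusters beside the spinal cord where sensory neurons of trunk and hindlimb have their cell bodies, in mouse embryos at E12.5 on a mixed C57/Bl6 x 129/SvEv background. The miR_cKO group (3 libraries) was miR-183-96-182-flox/flox with Wnt1-Cre, a driver that removes the floxed microRNA cluster in neural crest derivatives. These include sensory neurons and their glia but not blood cells or the inner lining of vessels. The control group (3 libraries) was of the same age and background; controls 1 and 3 were titled Wnt-Cre and control 2 was titled WT, so that 1 control has no Cre in its label. Whether 1 library stands for 1 embryo or a pool is not stated in the labels, and p-values measure only the spread between these samples. The table lists the 3 microRNA rows Mir183, Mir96 and Mir182 at 0 in all 6 libraries, so the deletion could not be checked from them.

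Every cell makes its proteins on ribosomes, and each ribosomal protein gene encodes 1 structural component of a particle in which nearly all components are needed in equal numbers. In vertebrates most of these messages begin with a stretch of C and T called a 5′ terminal oligopyrimidine (TOP) tract, through which mTOR signalling and LARP1 set their translation together. In ganglia, ribosomal protein messages are made by neurons, glia and all other cells present, and growing axons are known to carry some of them.

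The sequences at the start of the members are shown first because a shared start is what TOP messages are known for. Of the 80 members, 60 had a promoter entry under their symbol or a synonym in RefSeq (GRCm38.p6, the same coordinates as mm10). An uninterrupted run of at least 7 bases of C or T on the coding strand, overlapping the 10 bases on either side of the start, was found in 33 of these 60 (55%). The share was 23.0% of 9088 genes tested with an entry and 22.5% of all 27025 genes with an entry. Where a gene had several annotated starts, the longest run over them was taken. The median longest run was 7 bases in members and 4 bases in both backgrounds. A run is a description of the letters and not a shown TOP tract, and annotated starts can be off by some bases. The 15 bases before and 15 after the start are given with the run in capitals, for Rps18, the member that differed most between genotypes, for Rpl35, Rplp2, Rps6 and Rpl15, which have long runs, and for Rplp0, Rps4x and Rpl41, abundant members in which no such run was found.
Rps18, chr17:33955651-33955680, minus strand: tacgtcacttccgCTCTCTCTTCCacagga
Rpl35, chr2:39005117-39005146, minus strand: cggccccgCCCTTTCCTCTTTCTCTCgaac
Rplp2, chr7:141447636-141447665, plus strand: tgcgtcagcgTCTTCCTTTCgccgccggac
Rps6, chr4:86857353-86857382, minus strand: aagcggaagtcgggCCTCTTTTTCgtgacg
Rpl15, chr14:18270972-18271001, minus strand: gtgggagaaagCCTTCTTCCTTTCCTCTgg
Rplp0, chr5:115559452-115559481, plus strand: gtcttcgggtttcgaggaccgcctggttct
Rps4x, chrX:102189377-102189406, minus strand: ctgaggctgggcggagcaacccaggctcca
Rpl41, chr10:128549154-128549183, minus strand: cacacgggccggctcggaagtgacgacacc

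The other sequences that bear on the comparison are the deleted microRNAs. They are shown as RefSeq gives them (GRCm38.p6, chromosome 6, minus strand), with the seed, bases 2 to 8, in capitals; the 3 seeds differ from each other.
miR-183-5p: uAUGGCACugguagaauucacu
miR-96-5p: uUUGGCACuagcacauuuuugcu
miR-182-5p: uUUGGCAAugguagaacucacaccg
Seed matches were searched in the 3′ UTR of the main GENCODE M21 transcript as GTGCCAT or TGCCATA (miR-183), GTGCCAA or TGCCAAA (miR-96) and TTGCCAA or TGCCAAA (miR-182), on the coding strand; both forms overlap in an 8-base match, counted once, and TGCCAAA serves 2 of the microRNAs. The median 3′ UTR was 68 bases in the 77 members tested and 1097 bases in 12047 genes. A match was found in 6 of 77 members (7.79%), against 33.6% of those genes. The matches in Rplp0, Rpl15 and Rpl31 are given in mm10 with their flanks, the match in capitals.
Rplp0 (miR-183), chr5:115563669-115563676, plus strand: tcttgacttgGTGCCATAgctagtctgg
Rpl15 (miR-96), chr14:18268786-18268792, minus strand: tatagtgtttGTGCCAAgtggtgttct
Rpl31 (miR-182), chr1:39371802-39371808, plus strand: ccagccatctTTGCCAAccagtagctc
A match was also found in Rps20 and Rps15a, whose annotated main transcripts carry 3′ UTRs of 3167 and 4728 bases. For Rps20 the transcript length recovered from the expression values was only 602 bases, and for Rps15a none could be recovered. Whether the transcripts counted hold these matches is therefore uncertain.

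Values are RPKM, reads per kilobase of transcript and per M mapped reads (M, mega), a unit read from the values, since the header names none. Depth, as estimated from the values, lay between 19.3 and 23.2 M reads. Whole reads could be recovered for 65 members; in the 63 of them above 100 reads, the median was 5387 reads per library and the range 127 to 22962, so that counting alone gives an SD of 0.020 on the log2 scale at the median and 0.13 at the lowest count. Neuron markers were high in every library, with Tubb3 (neuronal tubulin) at 654 to 915 RPKM and Isl1 (a sensory neuron transcription factor) at 143 to 202 RPKM. Libraries differed in tissue carried along: 12 muscle genes summed to 33.3, 201 and 152 RPKM across controls 1 to 3 and to 31.4, 35.6 and 45.4 RPKM across miR_cKO 1 to 3, and 15 mesenchyme genes to 242, 415 and 447 against 212, 283 and 321 RPKM. The part of such tissue in the results was not tested. Xist, made from the inactive X chromosome of females, was at 96.0 RPKM in miR_cKO 1 and at no more than 0.0890 RPKM in the other libraries.

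The ribosomal protein genes were among the most abundant transcripts of the ganglia. Their summed level was 22533, 26970 and 24507 RPKM across controls 1 to 3 and 21232, 26116 and 24079 RPKM across miR_cKO 1 to 3, which was between 5.19% and 6.47% of the summed RPKM of all genes. The lowest sums were those of miR_cKO 1 and control 1 and the highest those of control 2 and miR_cKO 2, and the groups overlapped. After a filter that asked for 1 RPKM in at least 3 libraries, 77 members and 13118 genes in all were tested; each of the 77 members was at 5.55 RPKM or more in every library. Their mean levels had a median of 285 RPKM with an interquartile range of 209 to 404 RPKM, against a median of 10.7 RPKM over all genes tested. The 43 large subunit genes (median 283 RPKM) and the 31 small subunit genes (median 294 RPKM) lay at nearly the same level. The rank of the members was held across libraries: over the 15 pairs of libraries, Pearson's r of log2(RPKM + 1) over these 77 genes was 0.973 to 0.997 and Spearman's rho 0.963 to 0.995, as descriptions of genes that share transcript length and copies in all libraries.

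**Figure D1:**
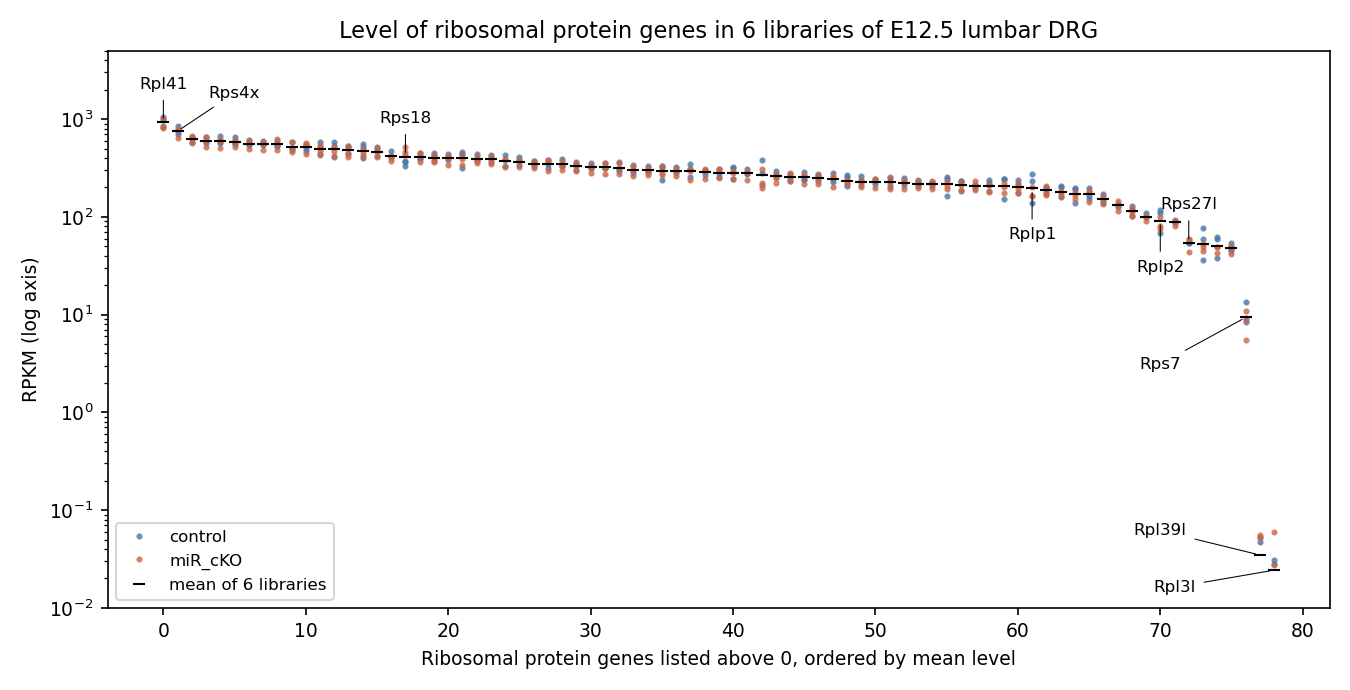
RPKM on a log axis for the ribosomal protein genes listed above 0, ordered by their mean over 6 libraries, with each dot 1 library (values of 0 cannot be drawn) and each bar the mean. The mean levels run down smoothly from Rpl41 (926 RPKM) to Rps15a (47.7 RPKM), with Rps7 (9.36 RPKM) below them and Rpl39l and Rpl3l (0.0347 and 0.0243 RPKM) far below.

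The highest member was Rpl41, whose product is the shortest of the ribosomal proteins. It was at 850, 1048 and 979 RPKM across controls 1 to 3 and at 816, 1032 and 834 RPKM across miR_cKO 1 to 3. It ranked 39th of all rows by mean level, and the groups overlapped. Rps4x, the X-linked gene of a small subunit protein, followed with 756, 841 and 707 RPKM across controls 1 to 3 and 645, 794 and 777 RPKM across miR_cKO 1 to 3. Then came Rpl10 (mean 623 RPKM), whose product joins the large subunit late in its assembly, Rpl7 (595 RPKM) and Rps3a (594 RPKM). The neighbours in this order from Rpl10 to Rps3a did not differ beyond their spread between libraries.

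At the other end were copies known from testis and muscle. Rpl10l, an intronless testis copy of Rpl10, was listed at 0 in all 6 libraries, where 3 reads would have been 0.126 to 0.152 RPKM. Rpl3l, a copy of Rpl3 known from heart and skeletal muscle, had 0 to 2 reads in each library, and Rpl39l, a testis copy of Rpl39, had 0 or 1 read. Their broad partners stood at a mean of 623 RPKM (Rpl10), 393 RPKM (Rpl3) and 415 RPKM (Rpl39). These 3 copies did not pass the filter. Rps27l, a copy of Rps27 that p53 is known to induce, was at 53.9, 55.5 and 54.1 RPKM across controls 1 to 3 and at 43.7, 59.3 and 57.8 RPKM across miR_cKO 1 to 3, while Rps27 averaged 228 RPKM.

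Rps7, a small subunit gene, stood apart at the low end with 8.44, 13.3 and 9.21 RPKM across controls 1 to 3 and 5.55, 10.8 and 8.83 RPKM across miR_cKO 1 to 3, from 127 to 328 reads per library. Rps15a (mean 47.7 RPKM), Rps21 (53.2 ± 13.3 RPKM in controls and 46.9 ± 3.85 RPKM in miR_cKO, SD, n = 3 each) and Rpl36 (mean 53.1 RPKM) were the next lowest of those tested. Rows for processed copies can take reads from such genes, and how the counting shared them is not stated by the sources at hand. Rps15a-ps6 (mean 164 RPKM) and Rps15a-ps4 (117 RPKM) were above Rps15a itself, Rplp2-ps1 (121 RPKM) was above Rplp2 (91.6 RPKM), and Rpl31-ps12 (491 RPKM) was above Rpl31 (209 RPKM). The levels of these members, and of Rpl34 and Rps19, which also have such a row, are therefore uncertain. Rpl34-ps1 kept nearly the same proportion to Rpl34 in every library. It was at 250, 305, 279, 240, 281 and 270 RPKM, and Rpl34 at 211, 259, 237, 203, 238 and 229 RPKM. Whole reads could not be recovered for Rpl31, Rpl34, Rps15a and Rplp2, but could for Rps19. Whether such rows hold the same reads was not tested. Processed copies were looked up by -ps in their symbol, so copies under other names would have been missed. Whether the low level of Rps7 reflects reads given to such copies was not tested.

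The members moved together from library to library. For each gene the deviation of log2(RPKM + 1) from its mean over the 6 libraries was taken, and the median over the 77 members was called the shift of a library. The shift was -0.098, 0.16 and 0.019 in controls 1 to 3 and -0.19, 0.11 and 0.0019 in miR_cKO 1 to 3. The lowest and highest library differed by 0.35, a 1.28-fold difference, and both ends held a library of each genotype: miR_cKO 1 and control 1 were low, control 2 and miR_cKO 2 were high. Over all genes tested the medians were -0.026, 0.027, 0.035, -0.043, -0.0039 and 0.0094 in the same order, a range of 0.078 (1.06-fold). In bulk tissue, fewer cells of a type that is rich in these messages and less of the messages per cell cannot be told apart. The shift also varied with GC content, most in controls 1 and 3 and miR_cKO 3, as given below, and its cause was not tested.

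**Figure D2:**
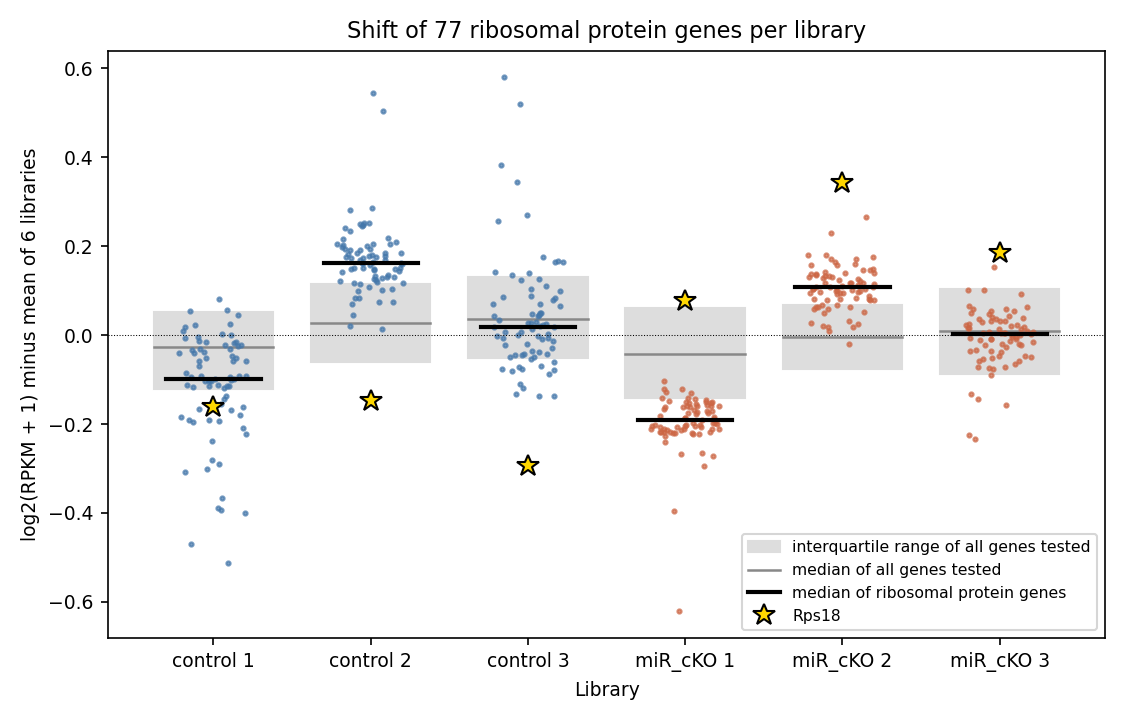
Deviation of log2(RPKM + 1) from the mean of the 6 libraries, one dot per ribosomal protein gene (77), by library, with the median of the members (black), the median and interquartile range of all genes tested (grey) and Rps18 (star). In control 2 and miR_cKO 2 nearly all dots lie above 0 and in miR_cKO 1 nearly all lie below it, while Rps18 is above 0 in the miR_cKO libraries and below it in the controls.

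In control 2, 76 of 77 members were above their own mean, the exception being Rps18. In miR_cKO 2 it was 76 of 77, the exception being Rps21, and in miR_cKO 1 it was 1 of 77, which was Rps18. Controls 1 and 3 and miR_cKO 3 had 9, 44 and 40 of 77 above. The share of all genes tested above their mean lay between 38.3% and 60.8% in every library. A single shift per library took 62.3% of the squared deviations of the members, against 2.53% for all genes tested. The correlation of a member with the shift over the 6 libraries, of which the member is itself a small part, had a median of 0.924; it was above 0.8 in 61 of 77 members and in 11.7% of all genes tested. Rps18 had the lowest value, 0.055.

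Both subunits took part in this shift. Large subunit genes were at -0.092, 0.16 and 0.019 in controls 1 to 3 and at -0.17, 0.11 and 0.00 in miR_cKO 1 to 3, and small subunit genes at -0.10, 0.18, 0.0080, -0.21, 0.10 and 0.0060. The median of the 3 stalk genes spread more widely, at -0.39, 0.28, 0.38, -0.20, 0.14 and -0.16. This came from Rplp1 and Rplp2, with an SD of log2(RPKM + 1) over the 6 libraries of 0.366 and 0.314, against 0.172 in Rplp0. It was not particular to the stalk. Rpl36 was at -0.51 in control 1 and 0.58 in control 3, and Rps21 at -0.37 and 0.34. The 32 tested members with a pyrimidine run at the start and the 25 without one had nearly the same shifts, -0.099 and -0.092 in control 1, 0.16 and 0.16 in control 2 and -0.18 and -0.18 in miR_cKO 1. The 4 X-linked members Rpl10, Rps4x, Rpl36a and Rpl39 lay within 0.064 of the shift of all members in miR_cKO 1, the library with Xist. The ends of this order stayed where they were under median and upper-quartile scaling, but the shifts of control 3 and miR_cKO 3, both near 0, changed sign there (-0.030 and -0.0028 under median centring).

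Ribosomal proteins whose symbols fall outside the rule followed the same order. Among the 7 tested were Rpsa (a small subunit protein also known as laminin receptor), Fau (a fusion of a ubiquitin-like part with a ribosomal protein), Gnb2l1 (the scaffold Rack1 on the small subunit), and the copies Rpl36al, Rpl22l1 and Rpl7l1. Gnb2l1 was at 465, 567 and 497 RPKM across controls 1 to 3 and at 435, 543 and 487 RPKM across miR_cKO 1 to 3, and Rpsa at 294, 370, 340, 278, 360 and 323 RPKM. The median shift of the 7 genes was -0.095, 0.16, 0.016, -0.16, 0.13 and -0.028, and their correlation with the shift of the members was 0.483 (Rpl22l1) to 0.990 (Gnb2l1) over 6 libraries. Among 13041 tested genes that are no members, the 5 with the highest correlation were Echs1 (0.999), an enzyme of mitochondrial fatty acid oxidation, 2610002D18Rik (0.995), C1qb (0.993), a complement subunit made by macrophages, Ppic (0.993), a cyclophilin of the secretory pathway, and Txn1 (0.992), thioredoxin.

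Other lists moved with the shift in part, and their role in it was not tested. The 14 elongation and initiation factors with TOP messages had medians of -0.037, 0.11, -0.052, -0.16, 0.079 and 0.055, and 36 ribosome biogenesis genes had -0.0035, 0.098, 0.025, -0.12, 0.015 and -0.0055. Both lists had their lowest value in miR_cKO 1 and their highest in control 2, as the members did. These ends were not particular to genes of translation. The macrophage genes given below had them too, and so did genes of tissue carried along. The 14 mesenchyme genes tested were at -0.39, 0.43, 0.39, -0.48, -0.13 and 0.083. The 9 muscle genes tested were at -0.89, 1.86, 1.51, -1.18, -0.92 and -0.29. The 13 mitochondrially encoded genes ran the other way at the ends, with 0.16 in control 1, 0.23 in miR_cKO 1 and -0.11 in control 2, but they were lowest in control 3 (-0.25). The 8 macrophage genes were at -0.14, 0.27, 0.023, -0.47, 0.24 and 0.11, summing to between 17.8 and 34.0 RPKM, and 17 cell cycle genes were at -0.21, 0.27, -0.22, -0.37, 0.17 and 0.32. The 19 sensory neuron genes were at 0.12, -0.15, 0.038, 0.22, 0.066 and -0.30. No gene of these lists was at 0 in all 6 libraries, and none of the lists summed to 0 in any library.

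Between genotypes, no ribosomal protein gene passed the test, and the members as a set lay slightly lower in miR_cKO by an amount smaller than the spread between libraries. limma called 0 of 77 members at an adjusted p under 0.05, against 0.061% of 13118 genes (0.0534% called higher and 0.00762% called lower, 8 genes in all). At an unadjusted p under 0.05 it was 1 of 77, against 5.16% of all genes (2.85% higher and 2.31% lower). The groups did not overlap in 1 of 77 members (1.3%), against 10.9% of all genes, 4.63% with miR_cKO higher and 6.24% with miR_cKO lower. The same member, Rps18, made up both counts. When 1 library was left out, 0 members and 0 to 2 genes in all were called; without control 1, 8 members and 1022 genes in all were at an unadjusted p under 0.05.

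The median log2 change over the members, miR_cKO minus control, was -0.056, and over all genes tested -0.024. It was -0.052 in large subunit genes, -0.052 in small subunit genes and -0.19 in the stalk genes. The change was above 0 in 6 of 77 members (7.79%), against 40.4% of all genes, and below 0 in 71. Since the members share the shift of each library, these 77 directions are not separate observations: the mean shift was 0.028 ± 0.13 (SD, n = 3) over controls and -0.027 ± 0.15 (SD, n = 3) over miR_cKO. Without miR_cKO 1 the median change over members was 0.026, without control 2 it was 0.0066, and without both 0.096, so its direction rested on these libraries.

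**Figure D3:**
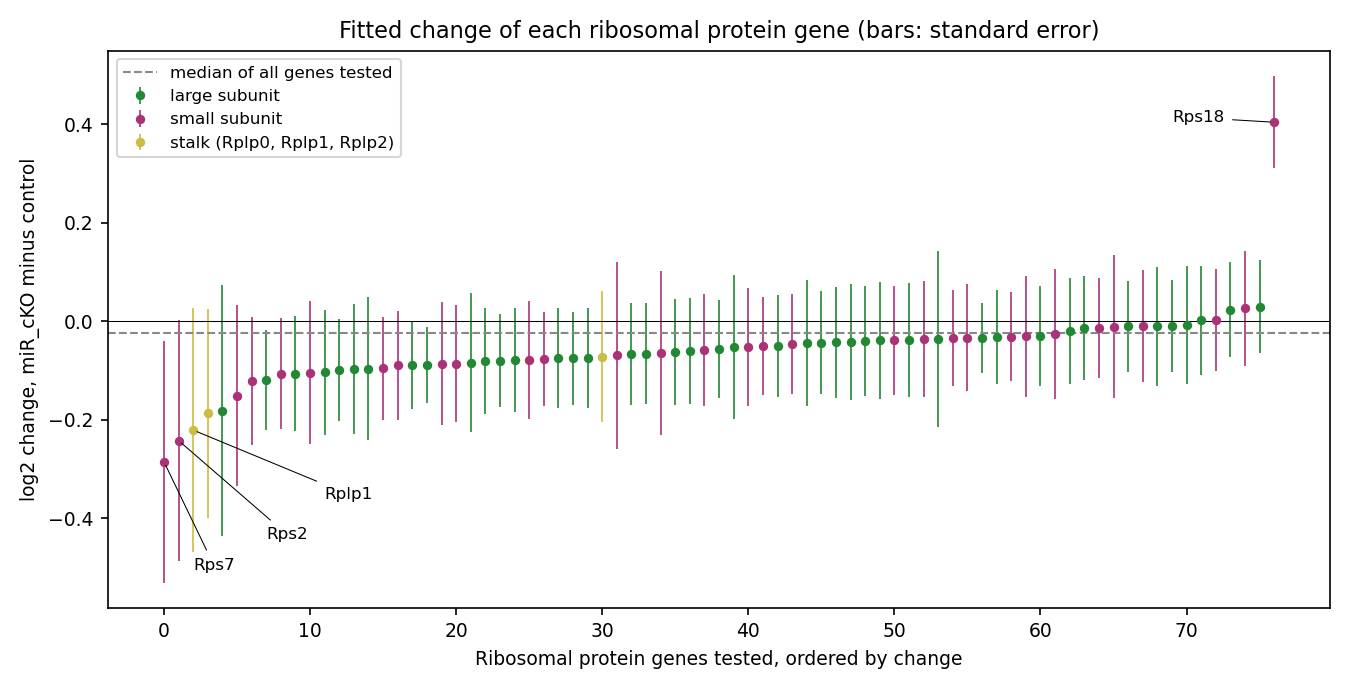
Fitted log2 change (miR_cKO minus control) of each of the 77 ribosomal protein genes tested, with its standard error, ordered by size and coloured by large subunit, small subunit and stalk; the dashed line is the median of all genes tested. Most members lie just below 0, with Rps18 alone at the upper end at 0.40 and Rps7 at the lower end at -0.29.

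Rps18 encodes a protein of the head of the small subunit, which forms a bridge to the large subunit. Its gene lies at chr17:33951999-33956001 on the minus strand (mm10, GENCODE M21). It was at 365, 368 and 332 RPKM across controls 1 to 3 and at 431, 518 and 464 RPKM across miR_cKO 1 to 3, from 4010 to 6874 reads per library. All miR_cKO libraries lay above all controls. The means were 355 ± 19.7 and 471 ± 44.0 RPKM (SD, n = 3 each), a 1.33-fold difference, and the log2 change was 0.40 (SE 0.094, limma, unadjusted p = 0.0035, adjusted p = 0.408; higher in 3 of 3 miR_cKO libraries). It ranked 114th of 13118 genes by p and did not pass the threshold, with a change of 0.33 to 0.49 and an adjusted p of 0.161 to 1.00 over all alternatives.

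Relative to the other members, Rps18 was low in controls 2 and 3 and high in all miR_cKO libraries, while in control 1 it lay within their spread. Its deviation minus the shift of the set was -0.065, -0.31 and -0.31 in controls 1 to 3 and 0.27, 0.24 and 0.18 in miR_cKO 1 to 3. No seed match was found in its annotated 3′ UTR of 44 bases. Its start carries a pyrimidine run, and its GC content of 54.3% is within the range of the members.

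Genes around Rps18 did not share its direction as a group; the window of 100 kb on either side was chosen after its values were seen. Of 16 tested genes there, 7 had a change above 0 and 9 below 0, with a median of -0.084. At an unadjusted p under 0.05, 1 of them was higher and 3 were lower, against 2.85% and 2.31% of all genes tested. None passed the adjusted threshold, and whether the region differs between the groups was not tested. The 1 higher gene under 0.05 was BC051226, at a mean of 0.967 RPKM in controls and 1.64 RPKM in miR_cKO. Its log2 change was 0.42 (limma, unadjusted p = 0.033), and the groups overlapped. B3galt4, at chr17:33949909-33951488 beside Rps18, also had a change above 0 (0.28, limma, unadjusted p = 0.078). Its means were 1.24 RPKM in controls and 1.73 RPKM in miR_cKO, and the groups overlapped. Vps52, whose annotated span overlaps that of Rps18, lay lower in miR_cKO without overlap of the groups (limma, unadjusted p = 0.069). Of the 3 lower genes under 0.05, the nearest to Rps18 were Wdr46, a nucleolar protein of small subunit assembly, and H2-Ke2, a prefoldin subunit. Their means were 16.9 ± 1.75 and 40.4 ± 1.85 RPKM in controls and 13.8 ± 0.81 and 35.7 ± 1.62 RPKM in miR_cKO (SD, n = 3 each). Both were lower in 3 of 3 miR_cKO libraries, with limma's adjusted p of 0.817 and 0.855.

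The stalk genes encode the flexible arm of the large subunit that recruits elongation factors: Rplp0 is its base, and Rplp1 and Rplp2 form its acidic dimers. Rplp0 was at 438, 578 and 521 RPKM across controls 1 to 3 and at 433, 549 and 477 RPKM across miR_cKO 1 to 3. Rplp1 was at 137, 232 and 273 RPKM and at 165, 204 and 163 RPKM, and Rplp2 at 68.4, 110 and 117 RPKM and at 74.6, 99.1 and 80.5 RPKM. Control 1 was the lowest library for Rplp1 and Rplp2 and miR_cKO 1 for Rplp0, and the groups overlapped. The log2 changes were -0.07 (SE 0.13), -0.22 (SE 0.25) and -0.19 (SE 0.21), each with an adjusted p of 1.00 in limma. The direction of Rplp0 turned without control 2 (0.019) or without miR_cKO 1 (0.0077). The change of Rplp1 was -0.51 without control 1 and -0.017 without control 3, and that of Rplp2 was -0.43 and -0.043, so the size of both rested on these controls.

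**Figure D4:**
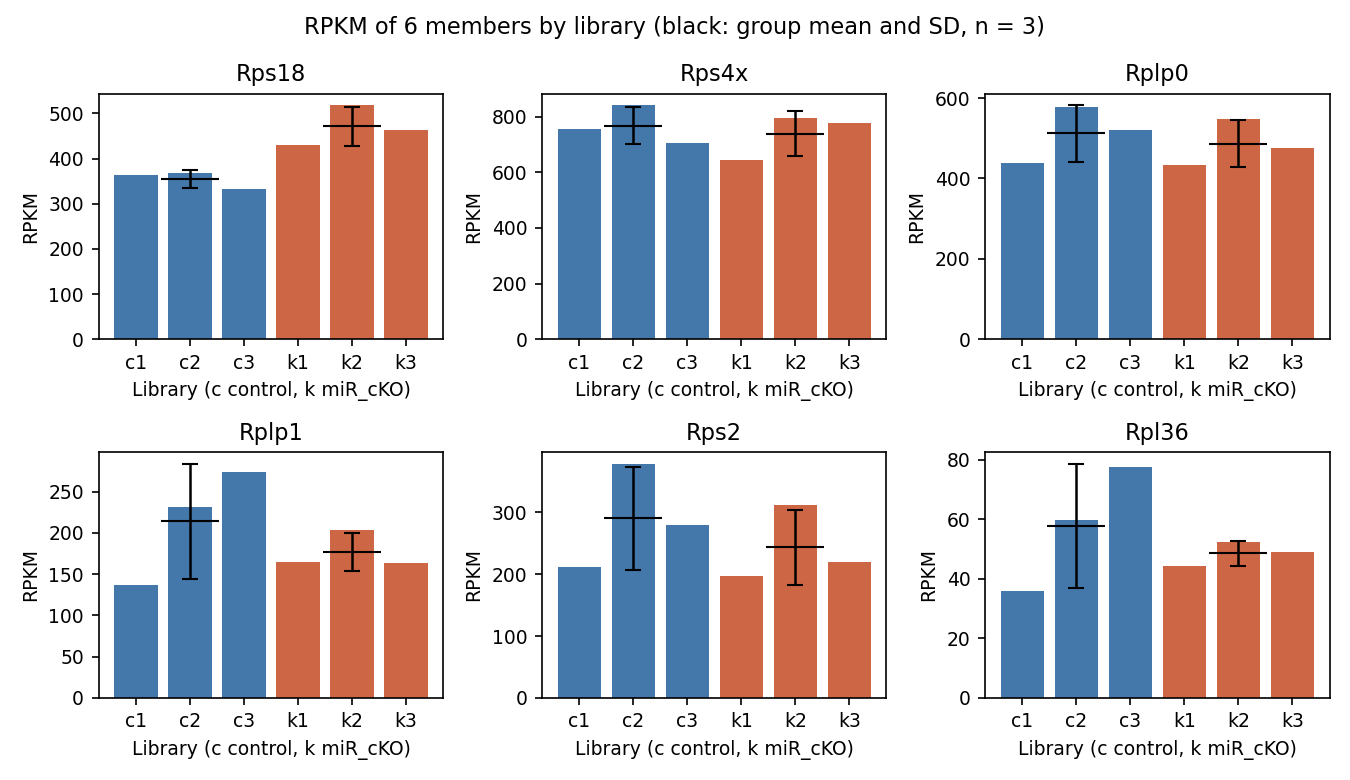
RPKM by library, controls (c1 to c3) and miR_cKO (k1 to k3), for Rps18, Rps4x, Rplp0, Rplp1, Rps2 and Rpl36, with bars for single libraries and black marks for group mean and SD (n = 3). Rps18 is the one panel in which all miR_cKO bars stand above all control bars; in the other panels the groups overlap.

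Among the other large subunit genes the smallest p with a lower level was that of Rpl37a. It was at 258, 294 and 265 RPKM across controls 1 to 3 and at 224, 277 and 252 RPKM across miR_cKO 1 to 3, and the groups overlapped. Its log2 change was -0.12 (SE 0.10, limma, unadjusted p = 0.277, adjusted p = 1.00; group means 272 ± 19.5 and 251 ± 26.7 RPKM, SD, n = 3 each). Rpl39, which lines the exit tunnel, was at 398, 466 and 421 RPKM and at 376, 417 and 413 RPKM. Rpl38, known for its part in the translation of Hox messages in the mouse axis, was at 197, 202 and 179 RPKM and at 166, 206 and 169 RPKM. Rpl22, which is dispensable for life in mice but needed for T cell development, was at 98.7, 110 and 101 RPKM and at 89.7, 101 and 99.3 RPKM. In all of these the groups overlapped.

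The members with a change above 0 besides Rps18 were 5 in number, with log2 changes between 0.0015 and 0.030. Rpl15, an RNA-binding core protein, was at 235, 274 and 250 RPKM across controls 1 to 3 and at 234, 278 and 263 RPKM across miR_cKO 1 to 3. Rpl31, at the rim of the exit tunnel, was at 212, 211 and 197 RPKM and at 186, 235 and 212 RPKM. Rps6, the substrate of S6 kinase, was at 397, 449 and 389 RPKM and at 368, 452 and 420 RPKM, and Rpl5, which carries 5S ribosomal RNA and binds Mdm2, at 282, 309 and 257 RPKM and at 248, 309 and 294 RPKM. All 5 overlapped between the groups, and the smallest unadjusted p among the 76 members other than Rps18 was 0.277.

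Rpl15 and Rpl31 are also members with a seed match, and the values were set against the matches. Over the 6 members with a match the median change was -0.038, from -0.073 (Rplp0) to 0.030 (Rpl15), with 2 above 0. Over the 71 without one it was -0.061, with 4 above 0. Rplp0, which holds the 8-base match, did not separate the groups. The difference between these sets of members was not tested.

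Members differed in how much they varied, and part of this spread went with base composition. The SD of log2(RPKM + 1) over the 6 libraries was largest in Rps7 (0.375), Rpl36 (0.373) and Rps2 (0.367), and smallest in Rpl21 (0.070), Rpl22 (0.092) and Rpl10 (0.095). Rps2, a protein at the mRNA entry of the small subunit, was at 212, 379 and 280 RPKM across controls 1 to 3 and at 197, 312 and 220 RPKM across miR_cKO 1 to 3. Rpl36 was at 35.9, 59.6 and 77.6 RPKM and at 44.2, 52.3 and 49.0 RPKM. Rpl21, in contrast, was at 86.3, 92.5 and 87.9 RPKM and at 80.6, 91.4 and 88.7 RPKM. Control 1 was the lowest library for Rpl36, and miR_cKO 1 for Rps2, Rps7 and Rpl21. For Rps7, whose change was -0.29 (SE 0.25, limma, unadjusted p = 0.283, adjusted p = 1.00; lower mean in miR_cKO, groups overlapping), control 2 was the highest. Its change was -0.046 without miR_cKO 1, -0.10 without control 2 and -0.47 without miR_cKO 2.

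The GC content of the members' main transcripts ran from 41.3% to 60.8%, with a median of 51.8% (50.2% over all genes). For some members the main transcript differed in length from the length recovered from the values. For Rps20, at the low end, it was 3706 against 602 bases, and for Rps10 887 against 673 bases. The GC content of such members may not be that of the transcripts counted. Across the 77 members, Pearson's r between GC content and deviation was -0.51, 0.23 and 0.53 in controls 1 to 3 and 0.03, -0.01 and -0.45 in miR_cKO 1 to 3. Over 12729 genes with an annotated transcript it was -0.24, 0.09, 0.26, 0.04, 0.0034 and -0.18, with the same sign in every library but miR_cKO 2, where both values were near 0. These are descriptions over genes of the same libraries. In the 25 members with the lowest GC content (41.3% to 49.2%) the shifts were -0.038, 0.16, -0.029, -0.18, 0.11 and 0.024, and in the 25 with the highest (54.0% to 60.8%) -0.14, 0.18, 0.079, -0.18, 0.10 and -0.038. The high control 2 and miR_cKO 2 and the low miR_cKO 1 were thus seen at both ends of GC content. Controls 1 and 3 and miR_cKO 3 varied most with it, though control 1 was below 0 at both ends, and control 2 varied less (r 0.23). Pearson's r between the log2 of transcript length and deviation was 0.25, -0.029 and -0.28 in controls 1 to 3. In miR_cKO 1 to 3 it was -0.0014, 0.061 and 0.098. Of the members with the largest SD, Rpl36 and Rps2 have a GC content of 60.8% and 55.9%, but Rps7 has 49.4%. Other members of high GC content varied less, such as Rps10 (60.3%, SD 0.165) and Rpl38 (59.1%, SD 0.135).

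**Figure D5:**
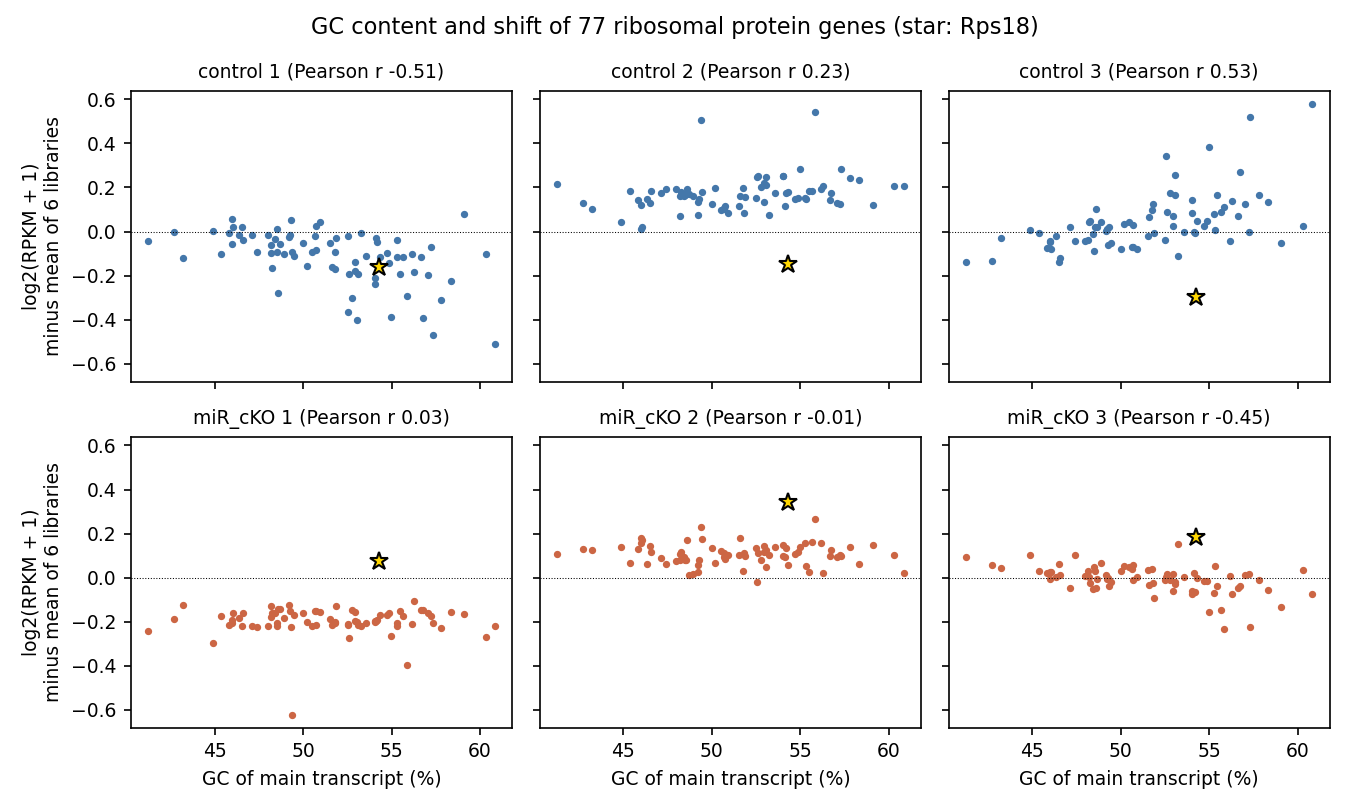
Deviation of log2(RPKM + 1) from the mean of 6 libraries against GC content (%) of the main transcript, one panel per library and one dot per ribosomal protein gene (77; star, Rps18). The cloud tilts down in control 1 and miR_cKO 3 and up in control 3, and is nearly flat but displaced as a whole in miR_cKO 1 and miR_cKO 2.

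Of the genes of ribosome production, growth control and the p53 response, none passed the test either. limma called 0 genes in each of 5 lists, and at an unadjusted p under 0.05 it found 1 gene, Eif4ebp2, where the share over all genes was 5.16%. Changes were below 0 in 13 of 14 translation factors with TOP messages (median -0.025), 17 of 24 initiation factors (-0.030) and 34 of 36 ribosome biogenesis genes (-0.072), and in 9 of 15 growth regulators (-0.020) and 6 of 13 p53 response genes (0.0048). Over all genes tested 40.4% were above 0 and the median was -0.024, and genes of a list share the shifts of the libraries, so these directions are not separate observations. Polr1a, the catalytic subunit of RNA polymerase I that transcribes ribosomal RNA, was at 14.6, 15.1 and 14.7 RPKM across controls 1 to 3 and at 13.3, 13.1 and 13.5 RPKM across miR_cKO 1 to 3, with no overlap (log2 change -0.14, limma adjusted p = 0.964). Eif4ebp2 is the form known from the nervous system of the mTOR-controlled repressor of the cap-binding protein Eif4e. It was at 33.3, 38.3 and 31.2 RPKM and at 47.1, 49.5 and 44.5 RPKM, also with no overlap. The means were 34.3 ± 3.66 and 47.0 ± 2.46 RPKM (SD, n = 3 each), with a log2 change of 0.45 (limma adjusted p = 0.246). Mtor itself was at 14.2, 14.1 and 12.9 RPKM and at 16.1, 14.8 and 15.4 RPKM (log2 change 0.16, limma adjusted p = 0.996), higher in 3 of 3 miR_cKO libraries.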

How the data were processed

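Per the submitters' processing notes, Bowtie was the aligner and mm10 the build; for the version, counting tool, annotation and handling of shared reads there is no statement (not given in the sources used here). As deposited by the authors, the data are 1 table of 24264 genes by 6 libraries whose header names no unit. The deposited values, written with decimal commas, were read as RPKM because a gene's values were whole multiples of a step set by transcript length; whether they are FPKM instead cannot be told. From these steps, depth was estimated with 250 genes, and whole reads (within 0.005 read at the lowest tolerance) were recovered for 65 members. Values were taken as log2(RPKM + 1), which understates the change of low genes; genes with at least 1 RPKM in 3 libraries were kept. limma 3.58.1 in R 4.3.3 (trend and robust) compared 3 miR_cKO with 3 control libraries, with Benjamini-Hochberg adjustment over 13118 genes and a threshold of 0.05, and was tested on simulated data. The planned test for counts was not used, since the table holds none. Summaries used Python 3.11.15 with pandas 2.3.3 and NumPy 2.4.6. Gene models, GC content and 3′ UTRs came from GENCODE M21, and starts and microRNAs from RefSeq; all 80 members were found in GENCODE. The members and lists were chosen with earlier results of these data known. Members named were the 5 highest and 5 lowest, the stalk genes, the restricted copies with their partners, up to 6 with the smallest p in each direction and the 3 with the largest and smallest SD; those with a printed start or seed match and those of high GC content were added after their values were seen. Same-numbered libraries correlated at 0.359, 0.330 and -0.221, so the numbers were not taken to pair the samples. Some members and related genes enter the counts and medians but are not reported here by name.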

Additional observations from a re-analysis of the deposited data

How the results depend on the processing

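No ribosomal protein gene passed the threshold under any of the 18 alternatives; at an unadjusted p under 0.05 they gave 1 to 8 members, with 8 without control 1. The 8 calls among all genes became 2 under median centring and 0 under a filter of 100 RPKM, upper-quartile scaling, scaling with haemoglobin and mitochondrial genes left out, scaling with ribosomal protein genes left out, limma without trend, and without controls 2 and 3 (12, 698, 681, 591, 705 and 403 genes at an unadjusted p under 0.05); without control 2 and miR_cKO 1 there were 21, and leaving out 1 library at a time gave 0 to 2. With the replicate number as a block, 0 genes and 0 members were called (847 genes and 3 members at an unadjusted p under 0.05) and the median change over members was -0.056. That median ran from -0.12 to 0.026 when 1 library was left out and was 0.096 without control 2 and miR_cKO 1; over all genes it was 0.018 without controls 2 and 3. Without controls 2 and 3, Rplp0, Rplp1 and Rplp2 were at 0.14, 0.36 and 0.29, and without control 2 and miR_cKO 1, Rplp0, Rps7 and Rpl37a were at 0.099, 0.13 and 0.018. Rplp0 ran from -0.18 to 0.019 when 1 library was left out, with 0.0077 without miR_cKO 1. Of 478 values for 27 tested members named, 415 kept their direction and 63 did not, in 25 members; Rps18 kept its own in all. The cause was not tested. Depth limits Rps7 and the rare copies most.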

Other observations

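Some genes ran opposite to the ribosomal protein genes across libraries; they were looked up after the values were seen. Malat1, a nuclear long noncoding RNA, was at 48.9, 23.9 and 36.0 RPKM across controls 1 to 3 and at 66.6, 30.8 and 37.4 RPKM across miR_cKO 1 to 3, with a correlation of -0.993 with the shift of the members over the 6 libraries. Dgka, a diacylglycerol kinase, had -0.987, with 5.82, 4.21 and 5.33 RPKM in controls and 7.15, 4.62 and 5.23 RPKM in miR_cKO. For both, the highest library was miR_cKO 1 and the lowest control 2, the reverse of the members, and the groups overlapped.

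The median changes of nuclear and of mitochondrially encoded respiratory chain genes lay on opposite sides of 0 between genotypes. Of 29 nuclear respiratory chain genes 26 had a change below 0 (median -0.093), and of 13 mitochondrially encoded genes 13 had a change above 0 (median 0.15), and limma called none of either at an adjusted p under 0.05 or an unadjusted p under 0.05. Over all genes tested 40.4% were above 0, with a median of -0.024. Genes of a list share the shifts of the libraries, the mitochondrially encoded ones with a median of 0.16 in control 1 and -0.25 in control 3, so these directions are not separate observations. The summed mitochondrially encoded level was 49543, 40709 and 37800 RPKM across controls 1 to 3 and 50315, 43587 and 44168 RPKM across miR_cKO 1 to 3. Red cell genes, whose 6 rows are mostly haemoglobins, summed to 9827, 5267 and 1757 RPKM in controls and to 3417, 6574 and 6773 RPKM in miR_cKO. The mitochondrially encoded sum was highest in miR_cKO 1 and control 1, where the ribosomal protein genes were lowest. It was lowest in control 3, whereas the ribosomal protein genes were highest in control 2. Red cell RNA did not follow the order of the ribosomal protein genes: it was high in control 1 and low in miR_cKO 1.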
